A study of Dirofilaria immitis with 5 samples.

Results

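The bantam and miR-80/81 family was followed through small RNA released by live heartworms, Dirofilaria immitis, into culture medium. Its members were the rows of the deposited table whose name, after the species prefix, begins with bantam or carries the number 58, 80, 81 or 82. This rule found 6 of 1228 rows. The study made 5 libraries from the concentrated medium of whole worms: from adult males, adult females, microfilariae (the offspring that circulate in the blood), third-stage larvae (L3, the infective form) and fourth-stage larvae (L4), with 1 library for each. No group had a replicate, so no test between groups was possible and every comparison below is between single libraries. The sources used here do not give the number of worms per culture, the culture time or the worms' ages, so more worms and more RNA released per worm cannot be told apart.

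MicroRNAs are short RNAs that hold down the messenger RNAs they pair with, mainly through bases 2 to 8 from the 5′ end, called the seed. Members with 1 seed form a family that can act on overlapping targets. Bantam was described in Drosophila as a microRNA that promotes tissue growth and blocks cell death. In Caenorhabditis elegans its relatives are miR-58, miR-80, miR-81 and miR-82, which are abundant in the worm's body, and worms without them are small and lay eggs poorly. Bantam of filarial worms has also been detected in the blood of infected hosts.

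Of the 6 named members, 4 carried the same seed, GAGATCA in the DNA letters of the table. A search by seed, with no use of names, found 6 of the 1228 rows (0.489%): these 4 and 2 rows whose names begin with PC, candidates predicted by the authors' processing that were not checked here to be microRNAs. No row carried GAGATCG at bases 2 to 8, the seed of C. elegans miR-58, and 0 rows were named miR-58 or miR-80. The sequences are shown because they separate a bantam type from a miR-81 type and tie the candidates to named rows; the shared seed is in capitals, and the last, the row of the other bantam arm, lacks it.
bma-bantam_R+1: tGAGATCAttgtgaaagctatt
cel-miR-81-3p_R-2: tGAGATCAtcgtgaaagcta
asu-miR-81b-3p_1ss18TC: tGAGATCAtgccacatccgtct
PC-3p-38320_15: tGAGATCAtgccacatccgtcc
asu-miR-81c-3p_R-3_1ss9TC: tGAGATCAcgttacatccg
PC-3p-1661_767: tGAGATCAcgttacatccgtct
bma-bantam-p5_1ss12AG: aggccttcaccgtgatctacaga

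Outside the seed the rows fell into these types. All 6 rows with the seed were identical over their first 8 bases. Positions are counted from 1 at the 5′ end, and a substitution gives the base of the row named first. bma-bantam_R+1 and asu-miR-81b-3p_1ss18TC were identical at 12 of 22 positions. cel-miR-81-3p_R-2, named after a C. elegans miR-81, differed from bma-bantam_R+1 at 1 of the 20 positions compared, as T10C, and from asu-miR-81b-3p_1ss18TC at 9. By sequence it therefore lay next to bantam and not next to the Ascaris-named miR-81 rows. The candidate PC-3p-38320_15 differed from asu-miR-81b-3p_1ss18TC at its last base only, as T22C. The whole 19-base row asu-miR-81c-3p_R-3_1ss9TC was the start of the 22-base candidate PC-3p-1661_767. The 19-base row and this candidate are called the miR-81c forms below, and asu-miR-81b-3p_1ss18TC with PC-3p-38320_15 the miR-81b forms. PC-3p-1661_767 differed from asu-miR-81b-3p_1ss18TC at 3 positions, T9C, C11T and C12T.

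The table held between 32983 reads (adult males) and 727018 reads (microfilariae), which were 1.0% and 20.2% of the mappable reads. It held 34448 reads in L3 (0.870% of the mappable reads), 326187 in L4 (5.08%) and 376070 in adult females (12.2%). A share below is a percentage of a library's table reads, and a fold compares shares of 1 row in a pair of libraries. Parentheses give exact 95% binomial intervals. These cover counting error alone, because reads amplified by PCR and not tagged by molecule do not each stand for a separate molecule. lin-4, which times larval development in C. elegans, took 70.6% of the table reads in L3, 89.7% in L4 and 35.8% in adult males, against 0.00468% in microfilariae and 0.247% in adult females. These shares lower every other share in the same library, so levels are also given with lin-4 left out of the total.

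bma-bantam_R+1, the main arm of bantam, carried most of the family's reads in each library. It had 17521 reads in microfilariae, 106 in L3, 708 in L4, 8891 in adult females and 388 in adult males. As a share it stood at 2.41% (2.38 to 2.45) in microfilariae, 2.36% (2.32 to 2.41) in adult females, 1.18% (1.06 to 1.30) in adult males, 0.308% (0.252 to 0.372) in L3 and 0.217% (0.201 to 0.234) in L4. The top pair were level within counting error, with a female share 0.981-fold (0.956 to 1.01) that of microfilariae, and every other step down this order of shares was larger than counting error. Females exceeded males 2.01-fold (1.82 to 2.23), males exceeded L3 3.82-fold (3.08 to 4.79), and L3 exceeded L4 1.42-fold (1.14 to 1.74). The row is listed with 1 match in the dog genome, which carries a mismatch, and no other row of the family is listed with any.

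By rank, bantam was among the leading rows everywhere. By reads it ranked 6 in adult females, just below the candidate PC-3p-521_2331 and above PC-3p-903_1424. It ranked 7 in microfilariae, between bma-miR-57 and cel-miR-34-5p_R+1_1ss1AT, and 10 in L4, between bma-miR-5364 and PC-5p-799_1592. In L3 it ranked 11, between hco-miR-9 and bma-miR-100c_R+1_1ss12CT. Its lowest rank was 13, in adult males, between cel-mir-5592-1-p3_1ss8TC and bma-miR-2c_1ss20TC, although its share there was above that of either larval library.

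**Figure D1:**
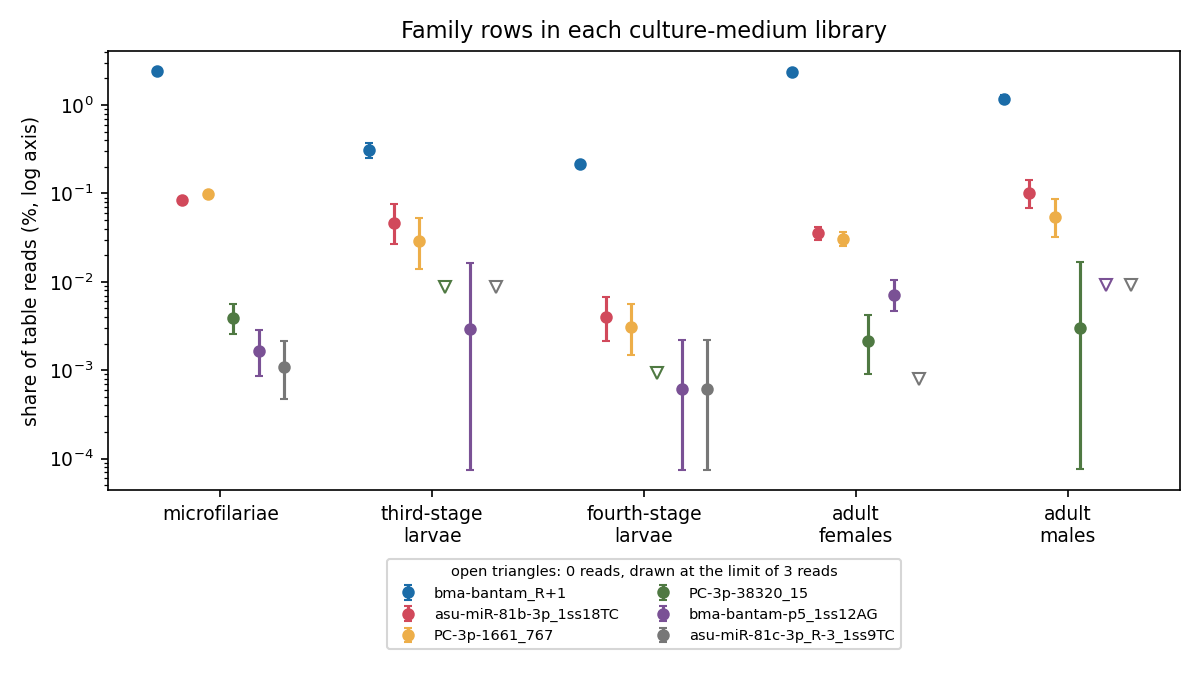
Share of table reads (%, log axis) of 6 family rows in each of the 5 libraries, 1 library per group; points are shares, bars exact 95% binomial intervals, and open triangles mark 0 reads at the limit of 3 reads. bma-bantam_R+1 lies above the other rows in all 5 libraries, while asu-miR-81b-3p_1ss18TC and PC-3p-1661_767 are highest in males and microfilariae respectively and both lowest in L4.

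How far the bantam level spanned the libraries depended on what it was set against. By share of the table the highest library was 11.1-fold above the lowest. With lin-4 left out of the totals the shares were 2.41% in microfilariae, 2.37% in adult females, 2.10% in L4, 1.83% in adult males and 1.05% in L3, a span of 2.30-fold. L4 thus moved from the lowest to the third place, next to the females.

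Per mappable read (scaled to 1000000 reads), the span widened to 182-fold. The values were 4873 in microfilariae, 2876 in adult females, 118 in adult males, 110.2 in L4 and 26.8 in L3. The authors' deposited normalized signal gave a narrower range instead: 1848 in adult females, 1625 in L4, 1598 in microfilariae, 1245 in L3 and 928 in adult males. Its span was 1.99-fold, and spans of 2.18-fold and 2.90-fold were obtained with median of ratios scaling and with TMM, the trimmed mean of M values. Females stood above males, microfilariae above L3 and females above L4 on every one of these scales. The order of L3, L4 and males changed between them, and so did that of females and microfilariae. Females to microfilariae was 0.590 (0.575 to 0.605) per mappable read, 0.792 (0.772 to 0.812) under TMM and 0.897 (0.874 to 0.920) under median of ratios. In the authors' signal this ratio was 1.16 (1.13 to 1.19), so the pair was level by share only. Under TMM the ratio of L4 to females was 0.927 (0.857 to 1.0008), so this pair could not be told apart on that scale.

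**Figure D2:**
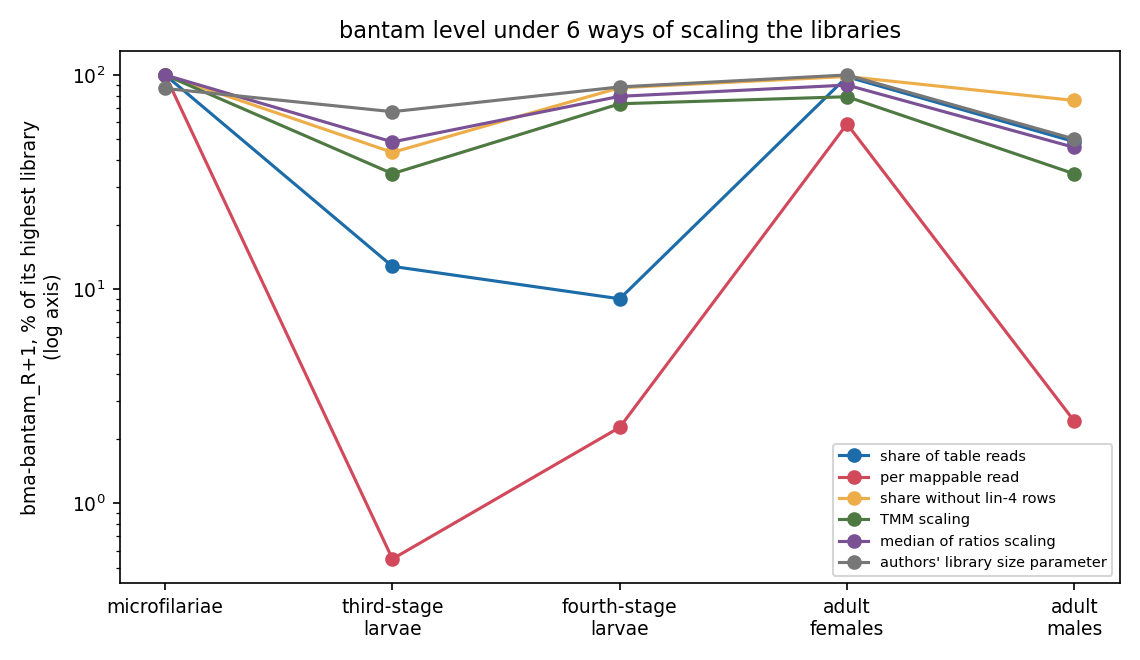
Level of bma-bantam_R+1 in each of the 5 libraries as a percentage of its highest library (log axis) under 6 ways of scaling; points are single libraries and lines only join points of 1 scaling. Per mappable read the highest and lowest libraries lie 182-fold apart, and with the authors' library size parameter 1.99-fold.

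The other arm of the bantam precursor, bma-bantam-p5_1ss12AG, was rare. Most precursors release 1 arm as the working microRNA, and the opposite arm is largely degraded. Folded against bma-bantam_R+1, its sequence formed 17 base pairs with a predicted energy of -19.6 kcal/mol. The pairing left 2 unpaired bases at the 3′ end of bantam and 1 at that of the other arm. The longest exactly complementary stretch was 6 bases. The other arm had 12 reads in microfilariae, 1 in L3, 2 in L4, 27 in adult females and 0 in adult males. The females held the most, although microfilariae had more reads of the main arm. Of the reads of both arms, the other arm made up 0.303% (0.200 to 0.440) in females and 0.0684% (0.0354 to 0.119) in microfilariae, intervals that do not overlap. In males 0 of 388 reads allow a share of up to 0.946% by the exact interval, and 0.935% (0.0237 to 5.10) in L3 and 0.282% (0.0341 to 1.01) in L4 rest on these few reads. The male library could therefore not show whether it resembled the female one.

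asu-miR-81b-3p_1ss18TC, named after a miR-81 of the pig roundworm Ascaris suum, was the next most abundant named member. It had 618 reads in microfilariae, 16 in L3, 13 in L4, 134 in adult females and 33 in adult males. Its share was highest in adult males at 0.100% (0.0689 to 0.141), followed by microfilariae at 0.0850% (0.0784 to 0.0920), and the intervals of these shares overlap. L3 followed at 0.0464% (0.0266 to 0.0754), females at 0.0356% (0.0299 to 0.0422) and L4 at 0.00399% (0.00212 to 0.00682). Both ends of this order changed with lin-4 left out of the totals, where miR-81b stood at 0.158% in L3, 0.156% in males, 0.0850% in microfilariae, 0.0386% in L4 and 0.0357% in females. On that total neither L3 and males nor L4 and females could be told apart. L3 was also highest and females lowest under TMM, median of ratios and the authors' parameter.

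Between the sexes miR-81b ran against bantam, with a male share 2.81-fold (1.86 to 4.14) that of females. It was 2.39-fold (1.98 to 2.90) higher in microfilariae than in females, where bantam was level. L3 exceeded L4 11.7-fold (5.26 to 26.3), and males exceeded L4 25.1-fold (12.9 to 52.0), both resting on 13 reads in the L4 library. With lin-4 left out, L3 exceeded L4 4.10-fold, and the ratio of L4 to males was 0.247 (0.120 to 0.483) in place of 0.0398. Per mappable read the sex difference turned, with females 4.33-fold above males.

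The candidate PC-3p-1661_767, which lies outside the rule on names, was read about as often as miR-81b. It had 715 reads in microfilariae, 10 in L3, 10 in L4, 115 in adult females and 18 in adult males, 868 in all against 814 for asu-miR-81b-3p_1ss18TC. The named 19-base row asu-miR-81c-3p_R-3_1ss9TC, its shortened form, had 8 reads in microfilariae, 2 in L4 and 0 elsewhere. The name miR-81c thus stood in the table on 10 reads, while the full-length sequence with the same start was listed as a predicted candidate. In microfilariae the 22-base form made up 98.9% (97.8 to 99.5) of the reads of both. The share of PC-3p-1661_767 was 3.22-fold (2.64 to 3.95) higher in microfilariae than in females and 1.79-fold (1.02 to 2.95) higher in males than in females, the same directions as for miR-81b. Per mappable read its sex difference also turned, with females 6.81-fold above males.

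The remaining rows were scarce. PC-3p-38320_15, the T22C variant of miR-81b, had 28 reads in microfilariae, 8 in adult females, 1 in adult males and 0 in both larval libraries. Of both miR-81b forms it made up 4.33% (2.90 to 6.20) in microfilariae and 5.63% (2.46 to 10.8) in females, with intervals that overlap. At the 16 and 13 miR-81b reads of L3 and L4, 0 reads allow shares of up to 20.6% and 24.7% by the exact intervals. These libraries could therefore not show whether the variant was absent or held a share like that in microfilariae and females. cel-miR-81-3p_R-2, 1 base away from bantam, had 1 read each in microfilariae, females and males. cel-mir-82-p5_1ss12TG, without the seed, had 1 read in microfilariae and 0 elsewhere.

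The balance of miR-81 against bantam inside each library needs no scaling between libraries. Of the reads of asu-miR-81b-3p_1ss18TC and bantam together, miR-81b made up 13.1% (7.69 to 20.4) in L3, 7.84% (5.46 to 10.8) in adult males, 3.41% (3.15 to 3.68) in microfilariae, 1.80% (0.964 to 3.06) in L4 and 1.48% (1.24 to 1.76) in adult females. L3 and males could not be told apart, with an odds ratio of 1.77 (0.876 to 3.46), and neither could L4 and females, at 1.22 (0.629 to 2.17). The other steps exceeded counting error: males against microfilariae gave an odds ratio of 2.41 (1.62 to 3.48), and microfilariae against L4 1.92 (1.11 to 3.65). Across the molt from L3 to L4 the odds ratio was 8.19 (3.58 to 19.1), and for females against males it was 0.177 (0.118 to 0.272).

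The miR-81c forms, counted from other reads, gave a similar order. Of their own and bantam's reads they made up 8.62% (4.21 to 15.3) in L3, 4.43% (2.65 to 6.92) in males, 3.96% (3.68 to 4.26) in microfilariae, 1.67% (0.864 to 2.89) in L4 and 1.28% (1.05 to 1.53) in females. Males and microfilariae could not be told apart here, with an odds ratio of 1.12 (0.655 to 1.81). The same held for L3 against males, at 2.03 (0.812 to 4.80), and for L4 against females, at 1.31 (0.655 to 2.39). Of the neighbours in this order, only microfilariae against L4 exceeded counting error, at 2.435 (1.38 to 4.76). The odds ratio was 5.55 (2.09 to 14.4) for L3 against L4 and 0.279 (0.167 to 0.492) for females against males. The bantam reads are the same as in the miR-81b balance, so the one is not independent of the other. The L3 and male libraries, with the highest miR-81 balance, were also those with the fewest table reads, and the part of depth in this was not tested.

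**Figure D3:**
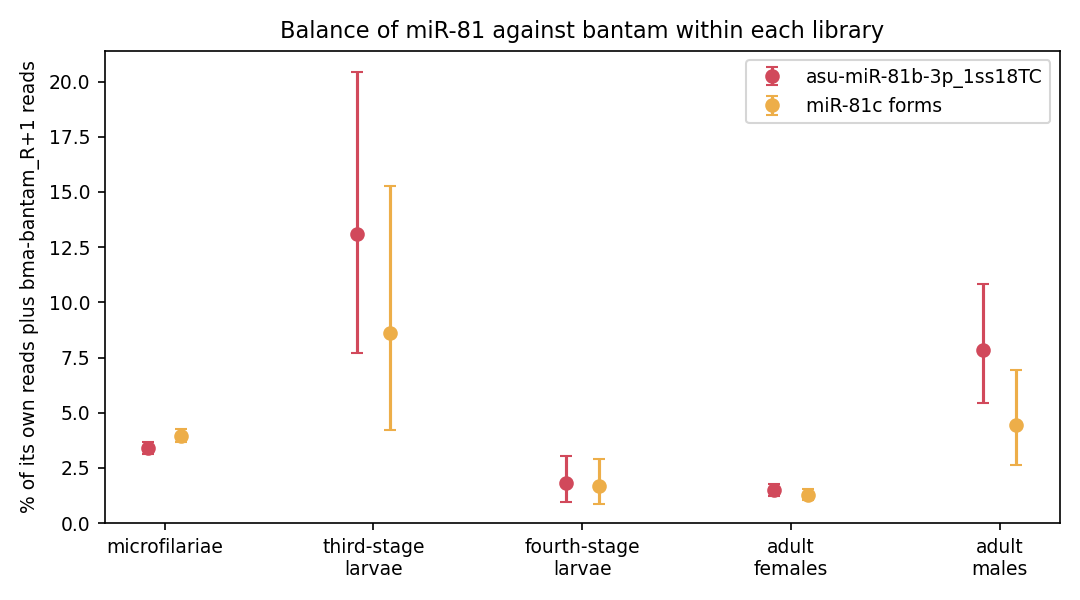
Reads of asu-miR-81b-3p_1ss18TC and of the miR-81c forms as a percentage of their own reads plus those of bma-bantam_R+1, by library; points are single libraries and bars exact 95% binomial intervals. For miR-81b the L3 (13.1%) and males (7.84%) lie above microfilariae (3.41%), L4 (1.80%) and females (1.48%).

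Set against each other, the miR-81 types held shares of the same order. The miR-81c forms made up 52.8% (50.1 to 55.5) of the reads of both types in microfilariae, 48.0% (27.8 to 68.7) in L4, 44.7% (38.6 to 51.1) in females, 38.5% (20.2 to 59.4) in L3 and 34.6% (22.0 to 49.1) in males. Microfilariae stood above females, with an odds ratio for females against microfilariae of 0.724 (0.548 to 0.954), and above males, with 0.473 (0.249 to 0.872) for males against microfilariae. The other pairs of libraries compared had intervals that included an odds ratio of 1.

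Summed by name, the family held 2.50% (2.46 to 2.53) of the table reads in microfilariae, 2.41% (2.36 to 2.46) in females, 1.28% (1.16 to 1.41) in males, 0.357% (0.297 to 0.426) in L3 and 0.222% (0.206 to 0.239) in L4. The sum followed bantam, and 1.49% (1.25 to 1.76) of it in females to 13.0% (7.62 to 20.3) in L3 came from other than bantam rows. Adding the seed-matched candidates in place of the names raised that part to 2.82% in females, 12.02% in males and 19.7% in L3.

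Against all rows of the table, family members were read at a minimum of 10 reads in either library and a 2-fold difference. Females against males compared 3 named members: bantam was at least 2-fold higher in females, where 33.6% of the 140 rows compared were called, and miR-81b in males, where 20.0% were. The bantam call lay at the threshold and ended under median of ratios (1.96-fold), with the authors' parameter (1.99-fold) and with lin-4 left out (1.29-fold, 1.17 to 1.44). The family sum was 1.88-fold (1.71 to 2.08) higher in females. The third, the other bantam arm, was undecided at 27 reads against 0 and was entered as a log2 ratio of 0. The median of the members was therefore 0 by this rule. Undecided rows entered the median of all rows, also 0, in the same way, so the match says nothing about the family.

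Microfilariae against L3 had 1 of 3 named members, bantam, at least 2-fold higher in microfilariae, beside 31.8% of 151 rows, and 0 of 3 in L3, beside 11.3%. The bantam share was 7.83-fold (6.47 to 9.57) that of L3. miR-81b was 1.83-fold (1.12 to 3.22) higher by share there and lower in microfilariae with lin-4 left out, at 0.537-fold. L3 against L4 had 1 of 2 members, miR-81b, at least 2-fold higher in L3, beside 50% of 66 rows, and 0 of 2 in L4, beside 6.06%. The family sum was 1.61-fold (1.32 to 1.95) higher in L3 by share and turned to 0.565-fold with lin-4 left out, and bantam turned with it, to 0.499-fold. miR-81b kept its direction there at 4.10-fold.

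Adult females against microfilariae had the other bantam arm 4.35-fold (2.13 to 9.43) higher in females, beside 42.5% of 174 rows, and miR-81b at least 2-fold higher in microfilariae, beside 28.2%. By share of the table, L4 were lower than either adult library for each member compared. All 3 members compared were at least 2-fold higher in females than in L4, beside 85.1% of 148 rows, and both members compared were higher in males, beside 67.5% of 77 rows, while 0 were higher in L4, beside 11.5% of rows against females and 10.4% against males. Both members compared were higher in males than in L3, beside 66.7% of 63 rows, and 0 in L3, beside 19.0%, but with lin-4 left out the male share of miR-81b was 0.985-fold (0.527 to 1.92) that of L3. The median log2 ratio of L4 to females was -3.45 over the members and -3.07 over all rows, so the members' median lay near that of the table. With lin-4 left out, bantam was 1.15-fold (1.01 to 1.30) higher in L4 than in males, the opposite direction from the table shares. For miR-81b the ratio of L4 to females was then 1.08 (0.560 to 1.91), so this pair could not be told apart.

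How the called rows split between libraries depended on the scaling as well. Per mappable read, 127 rows were at least 2-fold higher in females and 8 in males, in place of 47 and 28. On that scale 139 rows were higher in microfilariae and 8 in L3 (48 and 17 by share), and 6 in L3 and 44 in L4 (33 and 4 by share). It gave 56 rows higher in females and 75 in microfilariae (74 and 49 by share), and 26 in L4 and 37 in males (8 and 52 by share). With lin-4 left out, 33 rows were higher in females and 39 in males, 26 in microfilariae and 30 in L3, and 10 in L3 and 24 in L4. That total also gave 30 rows higher in L4 and 34 in males, 34 in L4 and 42 in females (17 and 126 by share), and 32 in males and 18 in L3 (42 and 12 by share).

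Rows with a pattern like that of bantam were sought among the 24 others with 10 or more reads in every library. Likeness was the root mean square difference of log2 shares over the 5 libraries, after each row was centred on its own mean. The nearest were bma-miR-100a_R+1 (0.322), PC-3p-183_5819 (0.395), bma-miR-228 (0.449), PC-3p-955_1342 (0.502) and bma-miR-100b_R+1 (0.679). bma-miR-100a_R+1 ran from 24.3% of the reads in microfilariae and 21.9% in females through 10.7% in males to 2.54% in L3 and 1.16% in L4, the order of bantam. bma-miR-228 differed in that males (2.05%) stood above microfilariae (1.89%) and females (1.80%). The miR-81 rows with bantam's seed were farther off, PC-3p-1661_767 at place 13 (1.09) and asu-miR-81b-3p_1ss18TC at place 14 (1.27) of the 24, and bma-lin-4 was last (6.92). The points share the library totals, and the likeness is a description of these 5 libraries.

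**Figure D4:**
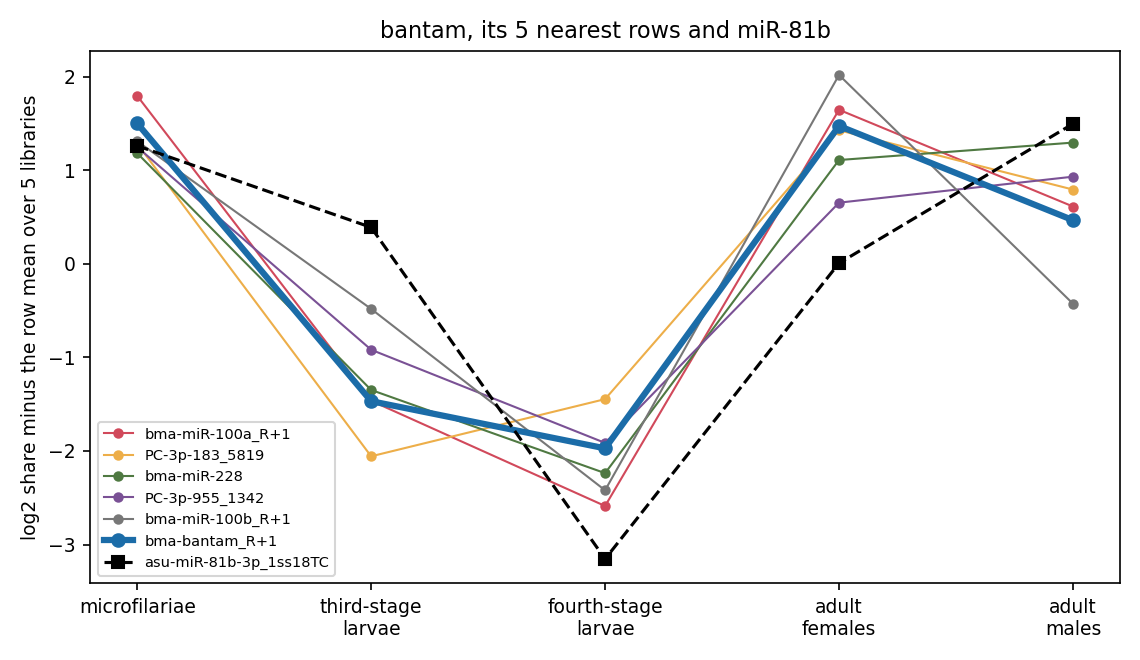
Log2 share of bma-bantam_R+1, of its 5 nearest rows and of asu-miR-81b-3p_1ss18TC, each minus its mean over the 5 libraries; points are single libraries and lines only join points of 1 row. asu-miR-81b-3p_1ss18TC lies above bantam in L3 and males and below it in microfilariae, females and L4.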

How the data were processed

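Small RNA from the medium of live worms was extracted with a Norgen Biotek kit and made into Illumina TruSeq small RNA libraries, per the labels' protocols. The submitters' processing notes name bcl2fastq 1.8.4 and Bowtie, while the sources used here do not give Bowtie's version and settings or the genome build. Per the file headers, only inserts of 18 to 25 nt were kept after adapter trimming. The deposited raw columns hold estimated counts per distinct sequence; they were rounded to the nearest whole number, with ties rounded up, which changed no family row. The deposited normalized signal is the raw count divided by 1 library size parameter per library, per the file headers, with a raw 0 written as a small constant. Of the table's lines, 1 is not analysed here.

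Shares were computed per table read. Shares have exact Clopper-Pearson intervals, ratios of shares exact conditional binomial intervals, and balances conditional odds ratios with exact intervals (SciPy 1.17.1), all at 95%. For 0 reads, 3 counts were taken as the limit, per library. Arm pairing used RNAduplex of ViennaRNA 2.7.2, and TMM factors edgeR 4.0.16. The ratio functions were tested on data simulated at the libraries' own totals. Rows named were the members by name, rows sharing their seed, the 5 nearest in pattern, and the rows next to bantam in rank; rows on which a total turns, such as lin-4, were added. The members and lists were chosen with earlier results of these data known. In medians over rows, a bound at 0 reads that lay on the other side of equal shares entered as a log2 ratio of 0. The comparison of males with third-stage larvae, the odds ratios of the balances, the rounding of ties and the rule on bounds were chosen after seeing the data. Intervals are not adjusted for the number of comparisons. Scaling by mappable reads, TMM, median of ratios and the authors' parameter, and totals without lin-4 or dog-matching rows, were the alternatives. The dog-matching rows include bma-bantam_R+1, which was left out of that total but kept as a family member.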

Additional observations from a re-analysis of the deposited data

How the results depend on the processing

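Ratios here are first to second library. For the family sum, scaling per mappable read gave 22.9 for females to males, 163 for microfilariae to L3, 0.275 for L3 to L4, 0.580 for females to microfilariae, 0.881 for L4 to males and 0.0385 for L4 to females. In the same order, TMM scaling gave 2.15, 2.58, 0.534, 0.778, 2.0 and 0.932. Median of ratios scaling gave 1.84, 0.694, 0.881, 1.63 and 0.891 for all but females to males, which stayed within its counting interval. The authors' parameter gave 1.15, 0.868, 1.14, 1.65 and 0.884 for the same 5. Totals without lin-4 gave 1.21 for females to males, 2.05 for microfilariae to L3, 0.565 for L3 to L4, 1.08 for L4 to males and 0.891 for L4 to females. Totals without dog-matching rows gave 1.015 for females to microfilariae and 0.0854 for L4 to females. bma-bantam_R+1 is itself such a row, left out of these totals but still counted in the family. These values are therefore not ratios of shares of the reads kept. Members by seed gave 0.936 for females to microfilariae. The direction thus held under all 7 alternatives for females above males, microfilariae above L3 and females above L4, and turned for the other 3. Among those that held, the interval reached equal levels for microfilariae to L3 with the authors' parameter (0.960 to 1.38) and L4 to females under TMM (0.863 to 1.006). Among those that turned, it included equal levels for L3 to L4 with the authors' parameter (0.711 to 1.05). It also did so for females to microfilariae without dog-matching rows (0.990 to 1.04) and L4 to males without lin-4 (0.956 to 1.22). For males to L3 the family sum became 0.936 (0.764 to 1.15) under TMM and 0.884 (0.721 to 1.09) under median of ratios, which were not told apart from equal levels. It turned to 0.699 (0.570 to 0.861) with the authors' parameter. The cause was not tested.

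bantam turned with the sum. L3 to L4 became 0.243 per mappable read, 0.471 under TMM, 0.612 under median of ratios, 0.766 with the authors' parameter and 0.499 without lin-4. L4 to males became 2.12 under TMM, 1.73 under median of ratios, 1.75 with the authors' parameter and 1.15 without lin-4. Males to L3 became 0.998 (0.803 to 1.25) under TMM and 0.943 (0.759 to 1.18) under median of ratios, which were not told apart from equal levels. With the authors' parameter it became 0.746 (0.600 to 0.933). Females to microfilariae, level by share for bantam, became 0.590 per mappable read, 0.792 under TMM and 0.897 under median of ratios. The authors' parameter gave 1.16 (1.13 to 1.19) for this pair, the opposite direction. asu-miR-81b-3p_1ss18TC turned for microfilariae to L3 (0.675 under TMM, 0.480 under median of ratios, 0.300 with the authors' parameter, 0.537 without lin-4), for L4 to females (1.13 under TMM, 1.08 under median of ratios, 1.07 with the authors' parameter, 1.08 without lin-4), for males to L3 (0.563 under TMM, 0.531 under median of ratios, 0.420 with the authors' parameter, 0.985 without lin-4) and, per mappable read, for females to males (4.33). For miR-81b, the intervals of all L4 to females values listed here included equal levels. So did those of microfilariae to L3 under TMM and of males to L3 under TMM, median of ratios and without lin-4. PC-3p-1661_767 turned for females to males per mappable read (6.81), for microfilariae to L3 (0.889 under median of ratios, 0.555 with the authors' parameter, 0.995 without lin-4) and for L4 to females under TMM (1.01). Of these PC-3p-1661_767 values, only that for females to males had an interval that excluded equal levels. The males to L3 ratio of PC-3p-1661_767, 1.88 (0.823 to 4.56), was not told apart from equal levels by share.

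The part of the family other than bantam, by seed in place of names, was 7.25% in microfilariae, 3.41% in L4, 2.82% in females and 12.02% in males, and the order of the libraries was kept. The 5 rows nearest to bantam cannot change with the scaling, since a factor per library cancels in the difference between rows. Of 140 counts of rows past the fold under other minimums, folds and scalings, 66 moved by over 1.5 times; rows at least 2-fold higher in females than in males numbered between 33 and 127 against 47, and in L3 than in L4 between 6 and 98 against 33. In the order of TMM, median of ratios and the authors' parameter, rows higher in microfilariae and in L3 numbered 31 and 26, 24 and 34, and 16 and 38; in L3 and in L4 10 and 26, 12 and 20, and 16 and 13; in L4 and in males 36 and 22, 34 and 28, and 35 and 28; in L4 and in females 35 and 40, 34 and 42, and 34 and 42; and in males and in L3 25 and 21, 24 and 21, and 21 and 24. For females and microfilariae TMM gave 66 and 65. The TMM factor of L3 was 0.613 with ties rounded up and 0.540 with ties rounded to even, so TMM values of L3 rest on rounding. The male and L3 libraries limited the depth, with a limit of 0.00910% and 0.00871% for a row at 0 reads. Insert lengths differed as well. Of the reads with adapter, 43.75% in males, 21.1% in L3, 18.7% in L4, 12.5% in females and 8.16% in microfilariae were under 18 nt. Over 25 nt were 5.76%, 38.2%, 22.5%, 48.9% and 58.9% in the same order. What this does to the comparisons was not tested. No paired analysis was possible because each group had 1 library.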
